A study of Mus musculus with 2 samples.

Results

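Heat shock proteins and the cochaperones that work with them were followed in MC3T3-E1 cells, a mouse calvaria-derived line of osteoblastic cells, treated with parathyroid hormone (PTH) at 10 nM for 1 h, and in untreated cells kept for the same 1 h. The genes were taken by symbol, from the HSP110, HSP70, HSP90, chaperonin, small heat shock protein, DNAJ, BAG and heat shock factor families, with at least 20 counts over both libraries. This gave 72 genes of 16408 with that many counts, out of 55487 rows. A further 8 symbols of these families had fewer counts and were not compared, and 1 of them, Hspb3, was listed at 0 in both libraries. Of those compared, Hsf5 stood just inside the limit with 22 counts in all, and Dnajc28 just outside it with 16. Both groups were the same line under the same culture conditions, in medium with 10% serum, plated at 25000 cells per cm2 and treated 24 h later. The PTH group was 1 library of 70036872 counts and the untreated group 1 library of 66302211 counts.

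Molecular chaperones hold and fold other proteins. HSP70 proteins work in cycles of ATP binding and release, in which DNAJ proteins deliver the client and trigger hydrolysis, and BAG and HSP110 proteins open the nucleotide pocket so that the client is let go. HSP90 proteins act later on clients such as kinases and steroid receptors, small heat shock proteins hold unfolded proteins without ATP, and the chaperonin made of Hspd1 and Hspe1 folds proteins in mitochondria. In stressed cells many of these genes are switched on by the transcription factor HSF1, which binds inverted repeats of GAA called heat shock elements. PTH acts on osteoblasts through a receptor that raises cyclic AMP.

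Since each condition is a single library, the differences could not be set against replicate spread and carry no p-value. Counts were scaled to the library sizes that TMM, edgeR's trimmed mean method, gives. Each ratio is scaled counts in the PTH library over scaled counts in the untreated library. The bracket after it is a 95% exact interval for counting error alone. It treats every read as an independent molecule. A gene is called past 1.5-fold when its whole interval lies beyond that ratio in either direction. Levels are scaled CPM, counts brought to a common library size, per kilobase of exon, and only they, and counts within 1 library, are set between genes.

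Osteoblast lineage markers could be read in both libraries. All 9 had 20 or more counts, among them the collagen gene Col1a1 with 2093308 counts in the PTH library and 1935295 in the untreated library. They were neither all high nor all even between the libraries. Bglap had 87 counts after PTH and 57 untreated, and Sp7 had 1974 and 4583. Ibsp had 2078 and 2608, Pth1r 4721 and 5709, and Runx2 13406 and 12626. Of 7 macrophage and osteoclast markers, 4 had 20 or more counts, and the list summed to 98.99 scaled CPM in the PTH library and 87.25 in the untreated library. Most of that was Ctsk, with 6452 counts after PTH and 5656 untreated. Csf1r had 155 counts after PTH and 122 untreated, Cd68 had 57 and 67, and Cd14 had 173 and 14. Ptprc, a marker of leukocytes in general, and Adgre1, a macrophage marker, were listed at 0 in both libraries. The part of these cell types in the results was not tested. Each of the 11 cyclic AMP target genes listed for comparison had more reads past 1.5-fold in the PTH library, against 5.39% of all rows. The median log2 ratio of the 11 was 2.62. The list was drawn up with earlier results of these data known, so it cannot serve as a separate sign of the PTH response.

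Of the 72 heat shock genes, 4 had more reads past 1.5-fold in the PTH library (Hspb1, Hsph1, Bag3 and Dnajb2) and 2 had fewer (Hspb7 and Bag2). The other 66 were neither. Across all compared rows 5.39% had more reads and 3.54% fewer by the same rule, 8.93% in all, and the 6 genes make up 8.33% of the family, a share close to that background. With the interval widened to allow a coefficient of variation of 0.2 between cultures, none of the 72 was past 1.5-fold, against 4.52% of all rows (2.89% more and 1.63% fewer). The count follows the limit. At a lower limit of 5/4 the family had 11 genes past it, with Dnajb9 added to those with more reads and Dnajb1, Dnajb5, Dnajc16 and Dnajc18 to those with fewer, against 16.5% of all rows (9.11% more and 7.39% fewer). At a limit of 2 it had Hspb1 and Hsph1, against 4.75% (3.15% more and 1.6% fewer). Among genes with 200 or more counts 5 of 66 passed 1.5-fold, against 5.83% of such rows (3.76% more and 2.07% fewer). For 57 of the 72, or 79.2%, the whole counting interval lay between 1/1.5 and 1.5, against 61.5% of all compared rows. Among genes with 200 or more counts the share was 84.8%, close to the 83.5% of such rows. The median log2 ratio of the family was 0.06, and that of all compared rows 0.00.

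**Figure D1:**
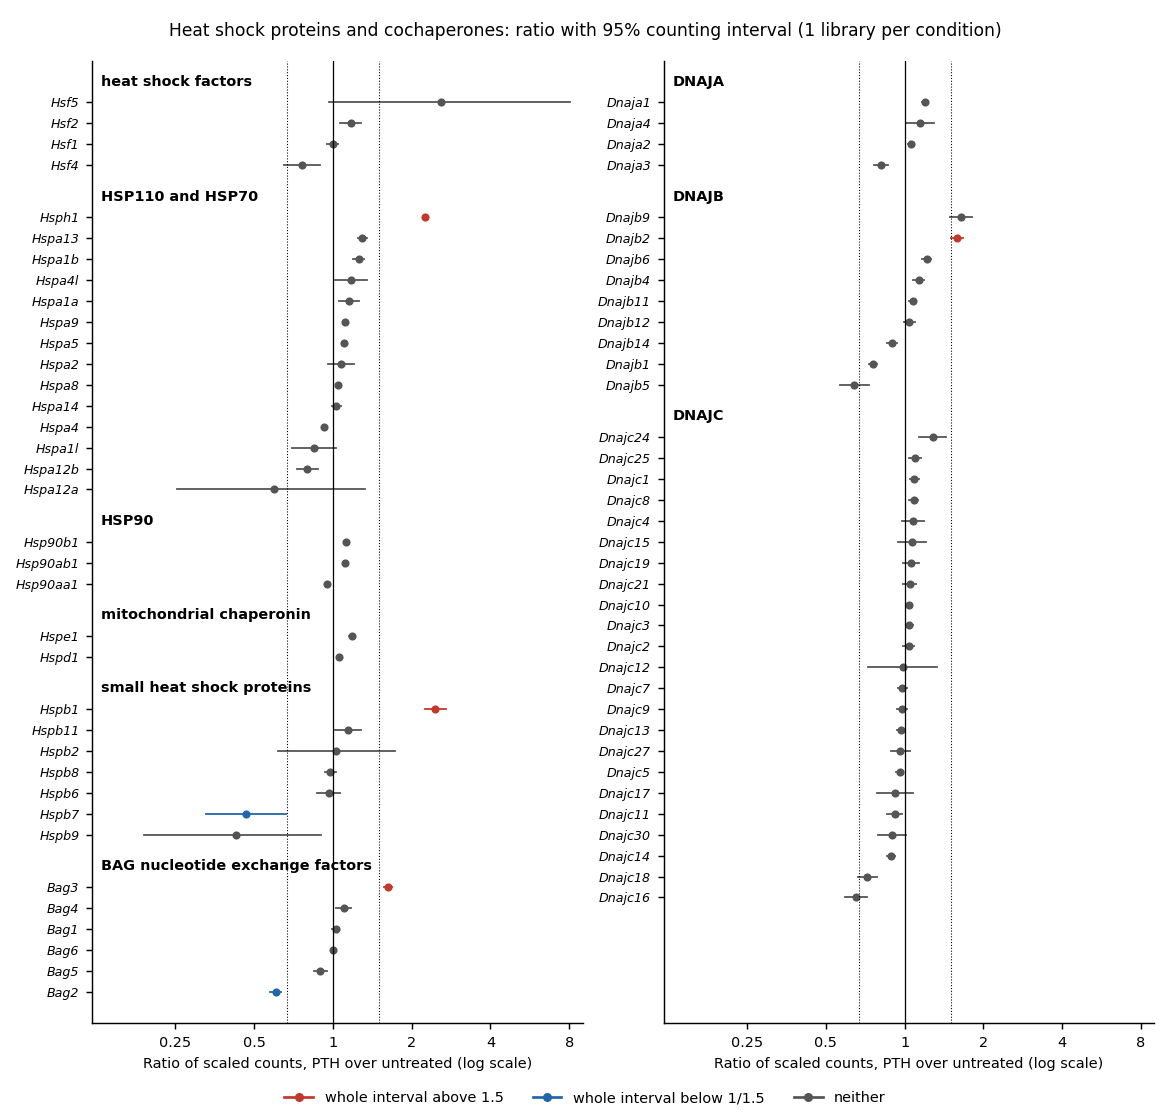
Ratio of scaled counts, PTH over untreated, on a log axis for each of the 72 heat shock proteins and cochaperones, grouped by role. Points are ratios of 1 library per condition, bars are 95% counting intervals, and dotted lines mark 1.5 and 1/1.5. Hspb1 at 2.47 and Hsph1 at 2.25 lie farthest right among genes whose whole interval clears the upper line, and most other points crowd around 1. The point of Hsf5, a gene with 22 counts in all, lies farther right at 2.59, but its interval reaches below 1.

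The promoter stretches of the genes with more reads, and of close relatives that did not pass the rule, are shown because they carry, or lack, the elements named above. They come from RefSeq on GRCm38.p6, the assembly also called mm10. They run 5′ to 3′ on the strand of the gene and end at the base before the RefSeq start unless stated otherwise. In the first 8 lines the capitals mark matches to GAANNTTC or TTCNNGAA, the inverted pairs of the heat shock element.
Hspb1, chr5:135887769-135887918, plus strand: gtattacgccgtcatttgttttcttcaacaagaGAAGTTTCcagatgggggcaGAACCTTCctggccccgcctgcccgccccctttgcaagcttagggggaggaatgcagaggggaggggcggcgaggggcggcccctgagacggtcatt
Hsph1, chr5:149636337-149636486, minus strand: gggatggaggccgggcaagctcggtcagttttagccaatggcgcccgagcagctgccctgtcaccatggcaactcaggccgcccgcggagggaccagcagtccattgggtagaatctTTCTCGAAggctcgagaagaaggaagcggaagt
Hsph1, 31 to 50 bases into the transcript, chr5:149636287-149636306, minus strand: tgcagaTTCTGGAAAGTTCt
Bag3, 31 to 50 bases into the transcript, chr7:128523613-128523632, plus strand: tggatgggaccaGAAGTTTC
Hspa1b, chr17:34959239-34959388, minus strand: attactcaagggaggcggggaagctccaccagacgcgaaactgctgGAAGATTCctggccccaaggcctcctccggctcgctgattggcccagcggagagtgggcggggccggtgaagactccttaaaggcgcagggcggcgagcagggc
Hspa1a, chr17:34972157-34972306, minus strand: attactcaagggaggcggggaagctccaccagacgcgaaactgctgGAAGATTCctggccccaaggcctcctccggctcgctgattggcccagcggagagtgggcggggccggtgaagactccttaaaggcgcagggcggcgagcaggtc
Hspe1, from -120 to -41, chr1:55088028-55088107, plus strand: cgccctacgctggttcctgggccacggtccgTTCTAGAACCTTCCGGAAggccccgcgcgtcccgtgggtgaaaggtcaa
Dnajb6, from -150 to -71, chr5:29735829-29735908, plus strand: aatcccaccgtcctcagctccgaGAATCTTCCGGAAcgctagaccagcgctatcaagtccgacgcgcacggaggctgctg
In the last 2 lines, from -170 to -71 relative to the start, the capitals mark TGACG on either strand, the core of the cyclic AMP response element.
Dnajb2, chr1:75236253-75236352, plus strand: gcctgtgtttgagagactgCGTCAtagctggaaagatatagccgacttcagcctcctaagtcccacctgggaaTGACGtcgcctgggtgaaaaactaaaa
Dnajb9, chr12:44210139-44210238, minus strand: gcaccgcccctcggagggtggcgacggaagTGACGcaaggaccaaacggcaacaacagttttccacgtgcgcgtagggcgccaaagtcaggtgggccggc

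Inverted pairs stood in stretches of genes past the rule and of genes that did not pass it. Whether any of these sites is in use was not tested. Hspb1 has an inverted pair at -117 to -110 and another at -97 to -90 from its start, and Hsph1 has one at -33 to -26 and a run of 3 units at 37 to 49 inside the transcript. The Hspa1a and Hspa1b stretches are identical at 149 of 150 bases, with the pair at -104 to -97 in both. Hspd1 and Hspe1 lie head to head on chromosome 1, so the run of overlapping pairs in the Hspe1 line is also the run found in the Hspd1 window. Hspa1a, Hspa1b, Hspd1, Hspe1 and Dnajb6 did not pass 1.5-fold, as given below.

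The transcription factors of the family come first in the pathway. Hsf1, the main activator of the heat shock response, had 3416 counts in the PTH library and 3328 in the untreated library, a ratio of 0.997 (0.950 to 1.05). Hsf2, a related factor that can bind DNA together with Hsf1, had 1032 and 857 counts in the PTH and untreated libraries, a ratio of 1.17 (1.07 to 1.28). Hsf4, best known from lens development, had 286 counts after PTH and 365 untreated, a ratio of 0.761 (0.650 to 0.891). None of the 3 passed 1.5-fold. Hsf5, a factor of male germ cells, had 16 and 6 counts in the PTH and untreated libraries, and its interval ran from 0.962 to 8.08, so no direction could be read at this depth. The level of Hsf1 was 6.96 in the PTH and 6.98 in the untreated library, the highest of the 4 factors.

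Among 14 HSP110 and HSP70 genes, Hsph1 alone passed 1.5-fold. Hsph1, which encodes HSP105, a nucleotide exchange factor of the HSP110 class, had 34297 counts in the PTH library and 14788 in the untreated library, a ratio of 2.25 (2.21 to 2.30). It lies at chr5:149614287-149636376 and shares no exon with another annotated gene. Its level was 68.3 in the PTH and 30.3 in the untreated library. The other HSP110 genes were not past the rule. Hspa4 had 17923 counts after PTH and 18771 untreated, a ratio of 0.927 (0.908 to 0.946), and Hspa4l had 445 and 368, a ratio of 1.17 (1.02 to 1.35).

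The stress-inducible HSP70 genes of the cytosol, Hspa1a and Hspa1b, are near-identical copies, so reads could be assigned to either. Hspa1b had 3821 counts in the PTH library and 2956 in the untreated library, a ratio of 1.26 (1.20 to 1.32). Hspa1a had 1080 and 911 counts in the PTH and untreated libraries, a ratio of 1.15 (1.05 to 1.26). Summed, the pair had a ratio of 1.23 (1.18 to 1.28), so its interval lay above 1 and below 1.5. Hspa8, the constitutive HSP70 of the cytosol, had 122541 counts after PTH and 113348 untreated, a ratio of 1.05 (1.04 to 1.06). A ratio within each library needs no scaling: Hsph1 had 0.280 counts per Hspa8 count in the PTH library and 0.130 in the untreated library, which differ 2.15-fold (2.10 to 2.19).

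HSP70 genes of other compartments had ratios near 1. Hspa5, or BiP, the HSP70 of the endoplasmic reticulum, had 57883 counts in the PTH library and 51103 in the untreated library, a ratio of 1.10 (1.09 to 1.11). Hspa9, or mortalin, the HSP70 of mitochondria, had 30611 and 26739 in the PTH and untreated libraries, a ratio of 1.11 (1.09 to 1.13). Hspa13, a microsome-associated relative, had the next highest ratio of the class after Hsph1, 1.30 (1.249 to 1.35). At the other end, Hspa12b, a divergent member described in endothelial cells, had 837 counts after PTH and 1017 untreated, a ratio of 0.799 (0.728 to 0.877). Hspa12a had 11 counts after PTH and 18 untreated, too few to place. Hspa1l had 71.9% of its exonic length overlapped by a gene on the opposite strand, and use of strand in counting was not stated in the labels.

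None of the 3 HSP90 genes passed 1.5-fold, and together they held 4316 CPM in the PTH library and 3925 CPM in the untreated library. Hsp90ab1, the constitutive cytosolic form, had 194576 counts after PTH and 169111 untreated, a ratio of 1.12 (1.11 to 1.12). Hsp90b1, or GRP94, the form of the endoplasmic reticulum, had 72267 and 62280 counts in the PTH and untreated libraries, a ratio of 1.13 (1.11 to 1.14). The stress-inducible cytosolic form Hsp90aa1 lay on the other side of 1, with 31580 counts after PTH and 32169 untreated, a ratio of 0.953 (0.939 to 0.968). Counts of Hsp90aa1 per count of Hsp90ab1 were 0.162 in the PTH and 0.190 in the untreated library, a ratio of 0.853 (0.839 to 0.868).

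In the mitochondrial chaperonin, Hspd1 (HSP60, the folding barrel) had 43663 counts in the PTH library and 40190 in the untreated library, a ratio of 1.06 (1.04 to 1.07). Hspe1 (HSP10, its lid) had 12195 and 10006 in the PTH and untreated libraries, a ratio of 1.18 (1.15 to 1.22). Counts of Hspe1 per count of Hspd1 were 0.279 after PTH and 0.249 untreated, a ratio of 1.12 (1.09 to 1.16). Rows named as pseudogenes or related sequences of both genes held few counts next to their parents, and the largest was Hspd1-ps3 with 929 in the PTH and 789 in the untreated library.

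**Figure D2:**
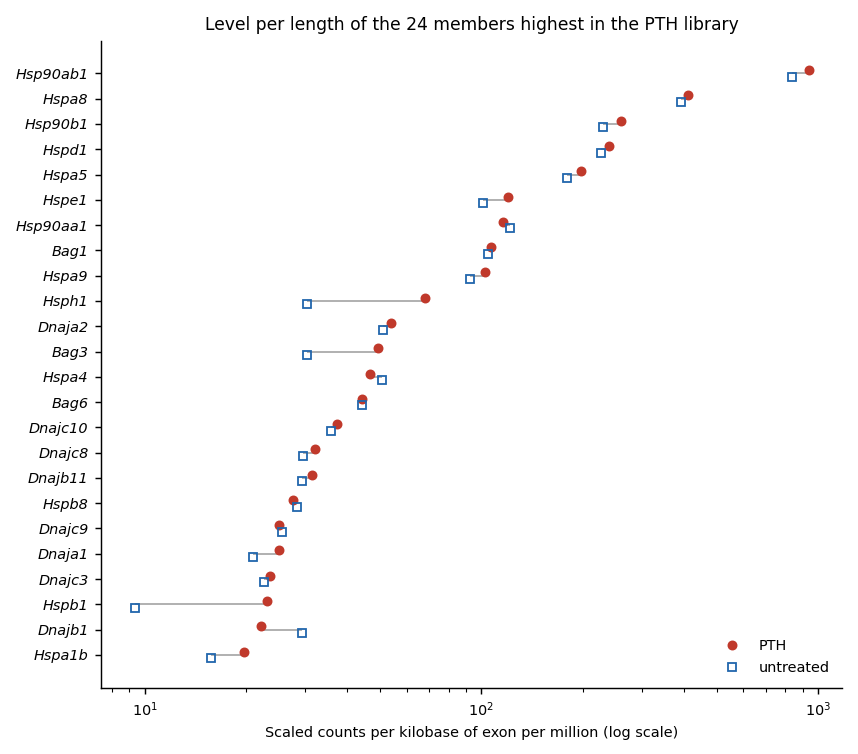
Level in scaled CPM per kilobase of exon, on a log axis, for the 24 heat shock genes highest in the PTH library. Filled circles are the PTH library and open squares the untreated library. The order is led by Hsp90ab1 in both, and the widest gaps are those of Hspb1, Hsph1 and Bag3.

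Per length, Hsp90ab1 was the most abundant member in both libraries, at 938 in the PTH library and 840 in the untreated library. Hspa8 followed at 412 after PTH and 392.5 untreated, then Hsp90b1 at 259 and 230, Hspd1 at 239 and 227, and Hspa5 at 198 and 180. In all, 8 members were above 100 in both libraries, and 7 were below 1 in both, 3 of them small heat shock protein genes. Hsph1 was 10th of the family in the PTH library. Over the family the 72 genes held 1.19% of all counts in the PTH library and 1.11% in the untreated library.

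Small heat shock protein genes held a member past the rule in each direction. Hspb1, which encodes HSP25, a chaperone that also binds actin filaments, had 1648 counts in the PTH library and 649 in the untreated library. That is a ratio of 2.47 (2.25 to 2.70), the highest among members with 100 or more counts in each library. Its level was 23.1 after PTH and 9.37 untreated, at chr5:135887919-135889563. A pseudogene named for it, Hsp25-ps1, had a ratio above 1 as well, with 167 counts in the PTH library and 26 in the untreated library. Reads of the parent and its copy may not be separable, and the rows together gave a ratio of 2.61 (2.39 to 2.86).

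Hspb7, a small heat shock protein of heart and muscle, had fewer reads past the rule, with 50 counts in the PTH library and 104 in the untreated library. Its ratio was 0.467 (0.326 to 0.660). Its level was below 1 in both libraries. Skeletal muscle markers, of which 3 of 6 were at 0 in each library, summed to 0.940 scaled CPM after PTH and 2.87 untreated. Acta1 had 28 counts after PTH and 124 untreated, Des 33 and 62, and Myh3 0 and 7. Myog went the other way with 4 and 0, and Myod1 and Ckm were at 0 in both libraries. The part of muscle cells in this result was not tested. In RNA from whole cultures, fewer cells of a type and less RNA per cell cannot be told apart. Hspb9, a testis form, had 11 and 25 counts in the PTH and untreated libraries, and its interval of 0.190 to 0.900 did not clear the rule.

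The other small heat shock protein genes lay near 1. Hspb8, which forms a complex with BAG3, had 3731 counts after PTH and 3704 untreated, a ratio of 0.978 (0.934 to 1.02). Hspb6, which is a target of cyclic AMP-dependent kinase as a protein, had 761 and 766 counts in the PTH and untreated libraries, a ratio of 0.965 (0.872 to 1.07). Hspb11, a part of the intraflagellar transport complex, had a ratio of 1.14 (1.02 to 1.28). Hspb2 overlaps Cryab, itself a small heat shock protein gene, over 30.2% of its exonic length on the opposite strand, and had 34 and 32 counts in the PTH and untreated libraries.

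The 6 BAG genes, exchange factors that release clients from HSP70, held a member in each direction. Bag3, which steers clients of HSP70 towards autophagy, had 8739 counts in the PTH library and 5232 in the untreated library, a ratio of 1.62 (1.57 to 1.68). Bag2, which restrains the ubiquitin ligase CHIP, had 2800 counts in the PTH library and 4501 in the untreated library, a ratio of 0.604 (0.576 to 0.633). Counts of Bag2 per count of Bag3 were 0.320 after PTH and 0.860 untreated. Bag3 lies at chr7:128523616-128546981 and Bag2 at chr1:33745484-33757795. Bag1, the first described exchange factor of the family, was the most abundant per length, at 107 after PTH and 105 untreated, with a ratio of 1.02 (0.996 to 1.05). Bag6, which guides membrane proteins after synthesis, had the most counts, 19020 after PTH and 18446 untreated. Bag3 and its partner Hspb8 differed, with 2.34 Bag3 counts per Hspb8 count in the PTH library and 1.41 in the untreated library.

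**Figure D3:**
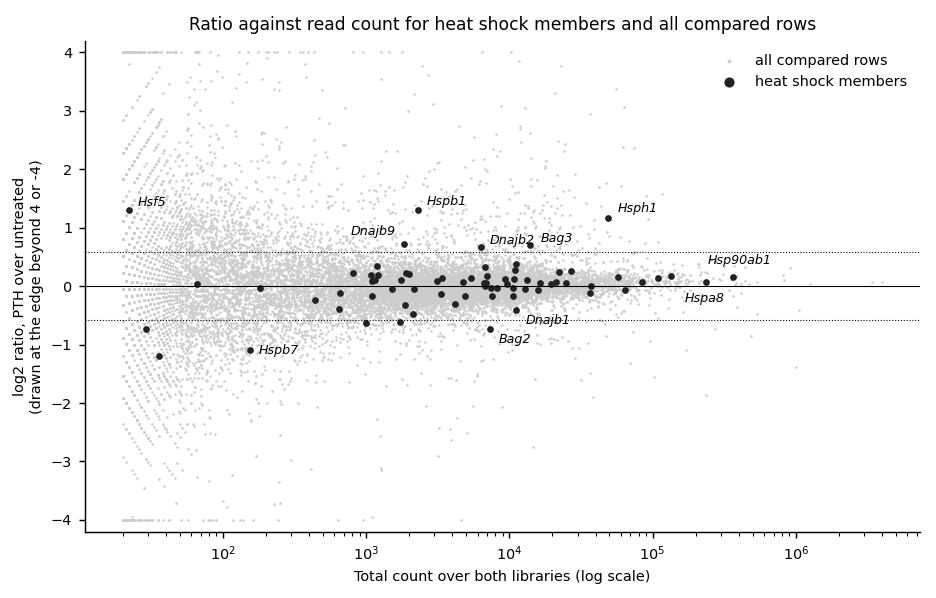
The log2 ratio, PTH over untreated, against the total count over both libraries on a log axis. Grey points are all 16408 compared rows and black points the 72 heat shock genes, with dotted lines at 1.5 and 1/1.5. The black points follow the grey band. Among genes with 200 or more counts, Hspb1 and Hsph1 are highest and Bag2 lowest. At low counts, Hsf5 lies above the upper dotted line and Hspb7, Hspb9 and Hspa12a below the lower.

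Of the 4 DNAJA genes, which are general HSP70 partners, none passed 1.5-fold. Dnaja1, of the cytosol, had 14919 counts in the PTH library and 12153 in the untreated library, a ratio of 1.19 (1.16 to 1.22). Dnaja3, of mitochondria, was the lowest, with 1894 counts after PTH and 2265 untreated, a ratio of 0.812 (0.764 to 0.864). Dnaja2 had a ratio of 1.06 (1.03 to 1.09) and Dnaja4 one of 1.14 (1.01 to 1.29), the last with 44.1% of its exonic length overlapped on the opposite strand.

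Among 9 DNAJB genes Dnajb2 was past the rule. Dnajb2, a cochaperone that binds ubiquitinated clients and is best known in neurons, had 3918 counts in the PTH library and 2397 in the untreated library, a ratio of 1.59 (1.51 to 1.67). It lies at chr1:75236406-75245692. With total-count scaling its interval began at 1.47, and with upper-quartile scaling at 1.48, so it did not pass under either. Dnajb9, or ERdj4, a BiP partner of the endoplasmic reticulum, had 1165 counts after PTH and 688 untreated, a ratio of 1.64. Its interval of 1.495 to 1.81 began just short of the limit. Counts of Dnajb9 per count of Hspa5 were 0.0201 after PTH and 0.0135 untreated, a ratio of 1.49 (1.36 to 1.64).

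Dnajb1, the HSP40 that is the standard partner of inducible HSP70, lay below 1. It had 4900 counts in the PTH library and 6296 in the untreated library, a ratio of 0.756 (0.728 to 0.785). Set against Hsph1 within each library, there were 6.999 Hsph1 counts per Dnajb1 count after PTH and 2.35 untreated, a ratio of 2.98 (2.86 to 3.11). These genes are both textbook HSF1 targets. Dnajb5, a relative of Dnajb1, had 395 counts after PTH and 597 untreated, a ratio of 0.643 (0.564 to 0.731), and did not clear the rule. Dnajb4 had a ratio of 1.13 (1.08 to 1.19), Dnajb6, which suppresses protein aggregation, 1.21 (1.17 to 1.26), and Dnajb11, or ERdj3, 1.07 (1.04 to 1.11).

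DNAJC genes, the most varied class, gave 23 members and none past 1.5-fold, with ratios between 0.653 and 1.28 and a median log2 ratio of -0.03. Dnajc16 was the lowest, with 689 counts after PTH and 1025 untreated, a ratio of 0.653 (0.592 to 0.720). Dnajc24, which takes part in making diphthamide on an elongation factor, was the highest, with 680 and 517 in the PTH and untreated libraries, a ratio of 1.28 (1.14 to 1.43). Between them stood the partners of BiP. Dnajc10, or ERdj5, a disulfide reductase, had the most counts of the class, 12908 after PTH and 12024 untreated, a ratio of 1.04 (1.02 to 1.07). Dnajc3, or P58IPK, had a ratio of 1.04 (1.01 to 1.07). For 21 of the 23, or 91.3%, the whole interval lay between 1/1.5 and 1.5. That held for 61.5% of all compared rows and 83.5% of those with 200 or more counts.

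Intervals that exclude 1 were common at this depth and their sizes small. Of the 72 genes, 31 had an interval wholly above 1 and 18 wholly below, against 29.4% and 29.2% of all compared rows, and the intervals of 23 covered 1. Median log2 ratios by class were 0.12 for HSP110 and HSP70, 0.16 for HSP90, 0.16 for the mitochondrial chaperonin, 0.11 for the heat shock factors, 0.14 for DNAJA, 0.10 for DNAJB, 0.02 for BAG and -0.03 for small heat shock proteins. The BAG median was -0.02 with total-count scaling and -0.01 with upper-quartile scaling, while the medians of the other classes kept their sign under every scaling run. The median log2 ratio of all compared rows was -0.04 under that scaling.

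None of 21 partner proteins of HSP70 and HSP90 passed 1.5-fold, with ratios between 0.870 and 1.14. By the same rule 8.93% of all rows passed, and 5.83% of rows with 200 or more counts. At such shares a list of this size would hold few or none, so the counts here and below do not set the lists apart. Stip1, which bridges HSP70 and HSP90, had 14084 counts in the PTH library and 14221 in the untreated library, and Fkbp4, a cochaperone of steroid receptors, had 12938 and 11745. None of 13 subunit genes of the cytosolic chaperonin TRiC and of prefoldin passed, with ratios between 0.987 and 1.29. Tcp1, a TRiC subunit gene, had 40647 counts after PTH and 37129 untreated.

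None of 18 genes of folding and the unfolded protein response in the endoplasmic reticulum passed, against 5.83% of rows with 200 or more counts. Their ratios lay between 0.750 for Ddit3, a stress-induced transcription factor gene, and 1.20 for Manf. Hyou1 and Sil1 of this list were also among the partner proteins. P4hb, a protein disulfide isomerase, had 80300 counts in the PTH library and 67899 in the untreated library. Among 15 genes linked to heat or cold stress 1 passed, Cirbp, which encodes a cold-inducible RNA-binding protein. It had 5632 counts after PTH and 2387 untreated, a ratio of 2.29 (2.18 to 2.40). With the interval widened for spread between cultures, as for the family above, the lower bound of Cirbp was 1.31 and it did not pass. Stip1, Fkbp4 and Chordc1 of this list were also among the partner proteins, and Tcp1 among the TRiC subunit genes. Rbm3, the other cold-inducible gene of the list, had a ratio of 1.16 (1.14 to 1.18), and Serpinh1, the collagen chaperone HSP47, had 122507 counts after PTH and 116157 untreated, a ratio of 1.02 (1.02 to 1.03).

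**Figure D4:**
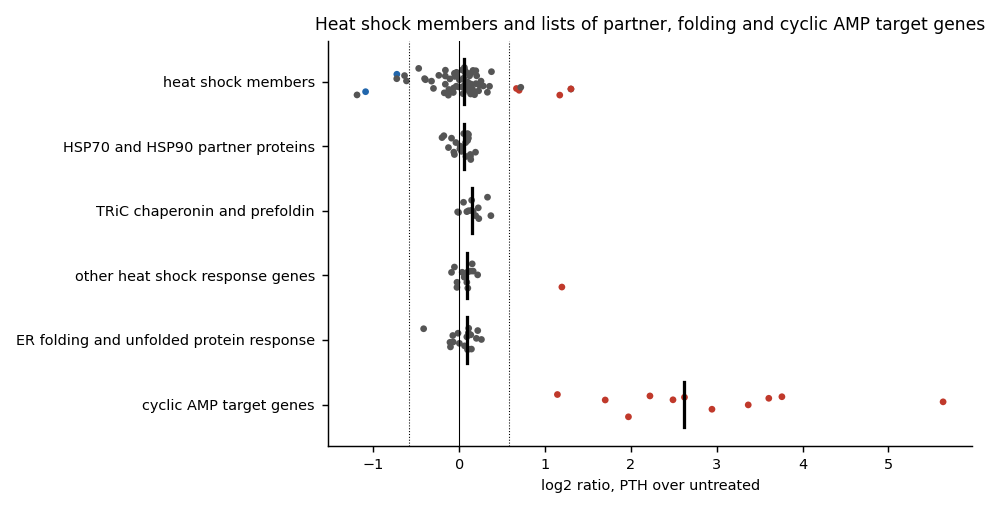
The log2 ratio, PTH over untreated, of each gene in the heat shock family and in 5 lists of related genes. Black bars are list medians, red and blue points are past 1.5-fold with more or fewer reads, and dotted lines mark that limit. The cyclic AMP targets have a median of 2.62, while the medians of the other lists lie between 0.05 and 0.14 and that of the family at 0.06.

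Promoter windows of 300 bases, running from 250 bases before each RefSeq start, were found for 57 of the 72 genes. Both strands were searched. An inverted pair of the heat shock element, GAANNTTC or TTCNNGAA, was in 16 of the 57, which is 28.1%, and in 13.8% of the 10745 compared genes with a window. Over windows rather than genes it was in 24.3% of 74 and in 15.1% of all 32851. The run of 3 units, in which GAANNTTC is followed by NNGAA so that both pairs overlap, was in 4 of the 57 (Dnajb6, Hspd1, Hspe1 and Hsph1), or 7.02%, and in 0.530% of compared genes. Hspd1 and Hspe1 share the same run.

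Of the 16 genes with a pair, 3 had more reads past 1.5-fold and none had fewer. The 3 were Hspb1, Hsph1 and Bag3. Of the 41 without a pair, 1 had more and 2 had fewer. The median log2 ratio was 0.22 with a pair and 0.04 without. The 16 are not all separate promoters, since Hspd1 and Hspe1 share a run and the Hspa1a and Hspa1b stretches are near-identical. Hsf5, whose direction could not be read, is also among them. Across all compared genes with a window, 4.24% of those with a pair and 4.43% of those without had more reads, and 3.43% and 2.97% had fewer. Their median log2 ratio was -0.01 both with and without a pair. The pair was present both in members past the rule and in members near 1, such as Hspb8, Hspb6 and Dnajc10. TGACG, the cyclic AMP core, was in 30 of the 57 genes, or 52.6%, and in 34.9% of compared genes. Of the 30 genes with the core, 2 had more reads past 1.5-fold (Hspb1 and Dnajb2) and 1 had fewer (Bag2). Of the 27 without it 2 had more (Hsph1 and Bag3) and 1 had fewer (Hspb7). Over all compared genes with a window, 4.33% of those with the core and 4.44% of those without had more reads. The shares with fewer reads were 2.48% and 3.33%. The full element TGACGTCA, which contains the core, was in Dnajc27 alone, or 1.75%, and in 3.54% of compared genes. Dnajc27 had a ratio of 0.962 (0.883 to 1.05). TATAAA was in 5.26% of the 57 genes and in 9.07% of compared genes. A match says only that the letters stand there.

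**Figure D5:**
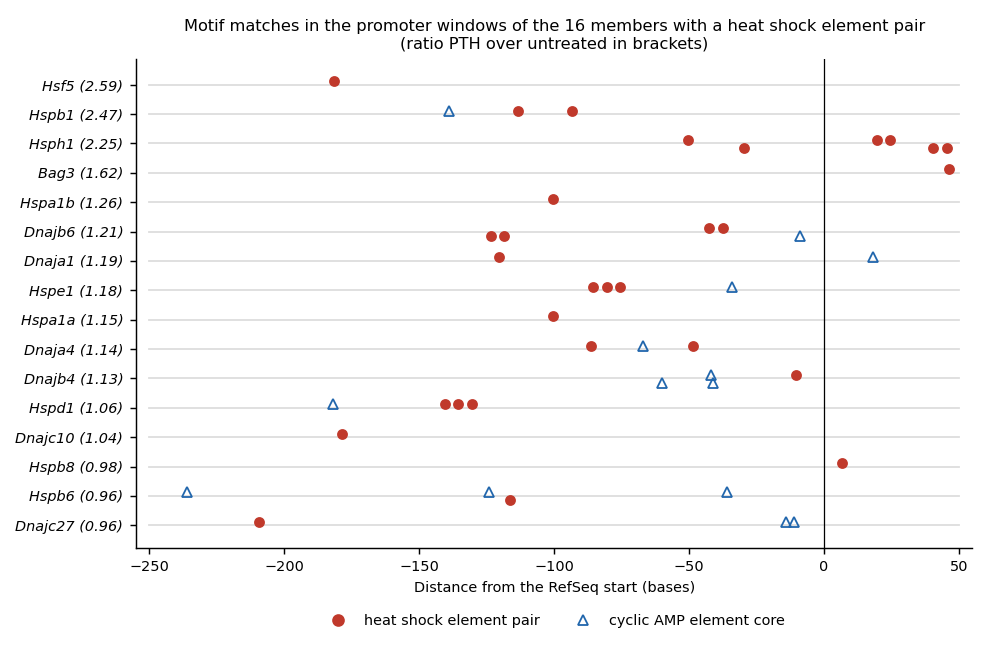
Places of motif matches in the promoter windows of the 16 heat shock genes with an inverted pair, as distance in bases from the RefSeq start, with genes ordered by ratio. Circles are heat shock element pairs and triangles the cyclic AMP element core, and second starts of a gene are drawn slightly lower. Pairs stand upstream in most genes, those of Bag3 and Hspb8 stand inside the transcript, and Hsph1 has pairs on both sides.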

How the data were processed

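RNA from 2 libraries, 1 per condition, was analysed. The authors deposited a table of raw read counts per gene. HISAT2 and mm10 are named per the submitters' processing notes. The aligner version, counting tool, annotation and strand setting were not given in the sources used here. edgeR 4.0.16 (R 4.3.3) gave TMM library sizes from rows with 20 or more counts. Ratios and exact conditional (Clopper-Pearson) intervals were computed with scipy 1.17.1, and 0.5 count was added for log2 ratios. No edgeR test could be fitted, having 1 library per group. Coordinates, exonic lengths and shared exons came from GENCODE M21, which held all 72 genes. Levels use exonic length.

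The members, lists and rules were chosen with earlier results of these data known. Genes named were those past 1.5-fold, the member of each class with most counts, its highest and lowest ratios among genes with 100 or more counts in each library, and 22 preset genes. Others were named after their values were seen. Alternatives were other scalings (including DESeq2 1.42.0), filters, limits, added counts and widened intervals.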

Additional observations from a re-analysis of the deposited data

How the results depend on the processing

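Of the 35 named members, none of those past 1.5-fold changed direction under the alternatives run. This could hardly have come out otherwise, since the alternatives barely move a ratio: Hsph1 went from 2.25 to 2.20 with total-count scaling. Bag1 and Bag6, which were not past 1.5-fold, crossed 1. Bag1 was 0.998 with total-count scaling, and Bag6 was 0.976 (0.957 to 0.996) with total-count and 0.983 with upper-quartile scaling. The count of 6 past 1.5-fold was 5 or 6 under the other scalings and filters, 11 at a limit of 5/4 (5 with more reads and 6 with fewer, against 9.11% and 7.39% of all rows), and 2 at a limit of 2. With members of 200 or more counts only, 1 had fewer reads, since Hspb7 is left out. Widening the interval for a coefficient of variation of 0.1 left 2 genes, Hspb1 and Hsph1, and none with fewer reads. The share of all rows at that setting was not worked out, so the 2 cannot be called many or few. Widening the interval for 0.2 left 0 in either direction, against 4.52% of all rows. The lower bound was then 1.41 for Hspb1 and 1.29 for Hsph1. At a limit of 2 the genes were again Hspb1 and Hsph1, both with more reads and 0 with fewer, against 3.15% and 1.6% of all rows. Under the total-count and upper-quartile scalings Dnajb2 was the named member that no longer passed. The family's median log2 ratio lay between 0.02 and 0.07. Leaving out Hspa1a and Hspa1b, an alternative chosen after seeing the data, changed no count, since neither had passed 1.5-fold. No paired analysis was possible because each group has 1 library, and for the same reason no library could be left out. Genes under about 200 counts, such as Hspb7, Hspb9 and Hsf5, are limited by depth.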
